A study of Mus musculus with 4 samples.

Results

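The genes described here are 22 genes of the integrated stress response, most of them targets of the transcription factor Atf4, and 17 cytosolic tRNA synthetases. They were picked by symbol from a list of 40 names, not by a cut on their levels, and 39 of these were present among the 21926 genes of the count tables. The list was drawn up with earlier results of these data known. The symbol Mars1 was not among them, because the methionyl-tRNA synthetase is listed there under its older symbol Mars. The values of Mars are given beside the list and are not counted in it.

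Single-cell RNA sequencing was performed on unsorted thymus cells of 1 WT mouse, which carried Eif4g2 flox/flox without Cre, and 1 Eif4g2 cKO mouse, which carried the same alleles with CD4-Cre, to ask what loss of the translation factor eIF4G2 does to developing T cells. Both mice were labelled female, 5 weeks old and of batch1. The floxed alleles are shared by both animals, and the Cre is driven by the Cd4 promoter, so that double-negative (DN) thymocytes and stromal cells of the cKO are expected by design to keep the gene. With 1 library per genotype there is no replicate check. All intervals below are 95% intervals that cover counting error only.

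The WT library held 6014 barcodes and 18355050 unique molecular identifiers (UMIs, each counting 1 captured RNA molecule), and the Eif4g2 cKO library held 4335 barcodes and 18056277 UMIs. Median depth was 1733.5 UMIs per WT cell and 2140 per cKO cell, and cells above 10000 UMIs gave 24.5% of the WT and 38.6% of the cKO UMIs. The targeted gene was no check of the labels: Eif4g2 was at 223 UMIs per 1000000 UMIs of the library (CPM) in the WT and at 274 CPM in the cKO, and 3′ tags need not lie in the floxed part, so that they do not check the deletion. By stage it was at 148 and 198 CPM in DN-like, 218 and 186 CPM in cycling, 261 and 521 CPM in double-positive-like, 267 and 403 CPM in early post-selection-like and 193 and 340 CPM in mature single-positive-like cells of the WT and the cKO, so that it was higher in the cKO library at each of these stages but the cycling one. Y-linked genes (Eif2s3y, Uty and Kdm5d) gave 2542 UMIs in the library labelled WT and 1 in the library labelled Eif4g2 cKO, although the labels call both mice female. This is a difference between the animals besides genotype, and its part in the results below was not tested. Neither the mice's sex nor any other difference between the animals can be told apart from genotype here.

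The integrated stress response begins when stress-sensing kinases phosphorylate the initiation factor eIF2, which slows general translation while the Atf4 mRNA is translated more. Atf4 then switches on genes for amino acid uptake, amino acid synthesis and tRNA charging, and its partner Ddit3 (CHOP) and the phosphatase subunit Ppp1r15a (GADD34) act later in the response. tRNA synthetases join each amino acid to its tRNA, so that their supply is tied to the demand for protein synthesis, which is high in dividing thymocytes.

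Atf4 binds as a dimer with C/EBP proteins to a composite element whose core is TGATGCAA, or TGATGAAA in a common variant. Both spellings, which differ at 1 base and were searched on both strands, were looked for in RefSeq promoter windows of GRCm38.p6 (250 bases before to 50 after the annotated start of transcription). Of the integrated stress response list, 19 genes had a window and 3 of them held a match. Of the synthetase list, 11 genes had a window, Mars1 among them, and 5 held a match. Over all 27025 genes with a window the share was 2.16%, and over all 32851 windows TGATGCAA was found in 0.895% and TGATGAAA in 1.02%. No window was listed for Ppp1r15b, Slc7a5, Slc1a5, Cars, Hars, Lars, Nars, Rars, Vars or Wars. Matches with 10 flanking bases on each side are shown 5′ to 3′ on the strand of the gene, because Atf4 is known to bind elements with these letters. Capitals mark the matching letters, which read TTGCATCA or TTTCATCA where the element lies on the opposite strand.
Asns, chr6:7693215-7693242, minus strand: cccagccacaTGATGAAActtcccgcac
Chac1, chr2:119351039-119351066, plus strand: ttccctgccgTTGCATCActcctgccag
Pycr1, chr11:120643834-120643861, minus strand: gccctgtgtaTGATGCAAtgcacaaggc
Aars, chr8:111033841-111033868, plus strand: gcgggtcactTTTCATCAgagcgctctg
Gars, chr6:55037961-55037988, plus strand: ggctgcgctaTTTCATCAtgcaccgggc
Iars, chr13:49682127-49682154, plus strand: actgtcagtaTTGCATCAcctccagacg
Tars, chr15:11399656-11399683, minus strand: aggagtcccgTTGCATCAgctggttagc
Yars, chr4:129189896-129189923, plus strand: cgagctcagcTGATGCAAcccgacggga
A match describes the letters only, and windows without one say nothing of the factor.

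Thymocyte stages were rebuilt by clustering without the 39 genes, so that the genes did not define the groups in which they are compared. The stages were DN-like (102 WT and 130 cKO cells, led by Il2ra, Hes1 and Myl10), cycling (992 and 1296), double-positive (DP)-like (3320 and 2093), early post-selection-like (647 and 511) and mature single-positive (SP)-like (787 and 262). Their summed fixed markers marked them in both libraries: cycling markers summed to 8399 and 8743 CPM in cycling cells against 921 and 1209 CPM in DP-like cells, and DN markers to 1436 and 1069 CPM in DN-like cells against 176 and 134 CPM. Early post-selection markers summed to 6258 and 4341 CPM in early cells, and mature SP markers to 4850 and 3361 CPM in mature cells. Both sums were lower in the cKO library, and whether these stages hold like cells was not tested. The mature SP-like stage was not split into CD4 and CD8 cells, which the study found reduced to unlike degrees in the cKO. Different clusters held most of a stage in the 2 libraries. Most DP-like WT cells were in cluster 0 (2293 WT and 127 cKO cells) and cluster 5 (830 and 83), and most cKO cells in cluster 1 (197 and 1883). Likewise, cycling WT cells were mainly in clusters 6 (522 and 52) and 7 (414 and 140) and cycling cKO cells in cluster 2 (56 and 1104). Cluster 7 was led by genes of mitosis (Cenpa, Ccnb2 and Cdc20) and of DNA replication (Hells and Dtl). In the clustering of all cells, a cluster led by Cenpa and Cdc20 held 160 WT and 113 cKO cells. Ratios within cluster 7 may thus compare unlike cell-cycle phases, which was not tested. Summed fibroblast markers stood between 0 and 0.999 CPM in the stages of both libraries. Erythroid markers were higher in the WT library at each stage, such as 550 and 12.7 CPM in cycling and 274 and 15.9 CPM in DP-like cells. In DP-like cells dendritic markers were at 56.9 and 20.2 CPM and B cell markers at 60.4 and 78.8 CPM. RNA of other cells thus differed between the libraries. Doublets were not removed.

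The main comparison asked how the 39 genes differed between cKO and WT thymocytes of the same stage, as the log2 ratio of CPM, cKO over WT. The list medians lay between −0.27 and 0.17 at every stage. In DP-like cells the median ratio was 0.04 for the 15 integrated stress response genes that reached 50 UMIs in WT and cKO together (median bounds −0.32 to 0.37) and 0.04 for all 17 synthetases (−0.31 to 0.29), whereas the median of all 8861 genes of that depth was −0.18. Past 0.5 on the log2 scale, the threshold used for all counts here, were Ddit4 on the higher side and Ppp1r15a and Iars on the lower side. Of all genes, 8.42% were higher and 29.7% were lower by that much. The whole table thus leaned to lower values in the cKO library, and fewer of the members than of all genes did.

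In cycling cells, which gave the most UMIs, the medians were 0.01 for 17 integrated stress response genes (−0.17 to 0.21) and −0.23 for 17 synthetases (−0.39 to −0.01), beside −0.28 for all 9359 genes. Cebpb was past 0.5 on the higher side (2.80 and 4.24 CPM, 0.60, −0.17 to 1.41), and Ppp1r15a and Tars on the lower side, against 3.26% higher and 35.5% lower of all genes. In early post-selection-like cells the medians were 0.17 (14 genes, −0.43 to 0.57) and −0.27 (15 genes, −0.85 to 0.28), beside −0.23 overall. There 4 integrated stress response genes were higher (Ddit4, Ppp1r15b, Psat1 and Psph) and 2 lower (Ddit3 and Phgdh), and 2 synthetases were lower (Lars and Tars), with backgrounds of 7.90% and 34.4%.

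In mature SP-like cells the medians were −0.08 (15 genes, −0.59 to 0.40) and −0.03 (16 genes, −0.65 to 0.39), beside −0.24 overall. Aldh18a1 was the 1 stress response gene on the higher side, 3 were lower (Ddit3, Ppp1r15a and Slc1a5), and 5 synthetases were lower (Aars, Gars, Vars, Wars and Yars), with backgrounds of 8.18% and 35.8%. In DN-like cells, where the Cre is not expected to act, the medians were 0.09 (11 genes, −0.49 to 0.71) and −0.25 (11 genes, −0.75 to 0.42), beside −0.11 overall. There 3 stress response genes were higher (Cebpg, Ddit4 and Psat1) and 4 lower (Ddit3 and the transporters Slc7a5, Slc3a2 and Slc1a5), and 1 synthetase (Sars) was higher and 3 were lower (Dars, Nars and Tars), with backgrounds of 9.65% and 26.7%. DN-like cells gave the fewest UMIs of the 5 stages, 663881 in the WT and 921126 in the cKO library. Counts of members past the threshold rest on few UMIs per gene and changed with the choice of cells: the count of lower synthetases in mature SP-like cells ran from 0 to 6 over the alternatives.

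**Figure D1:**
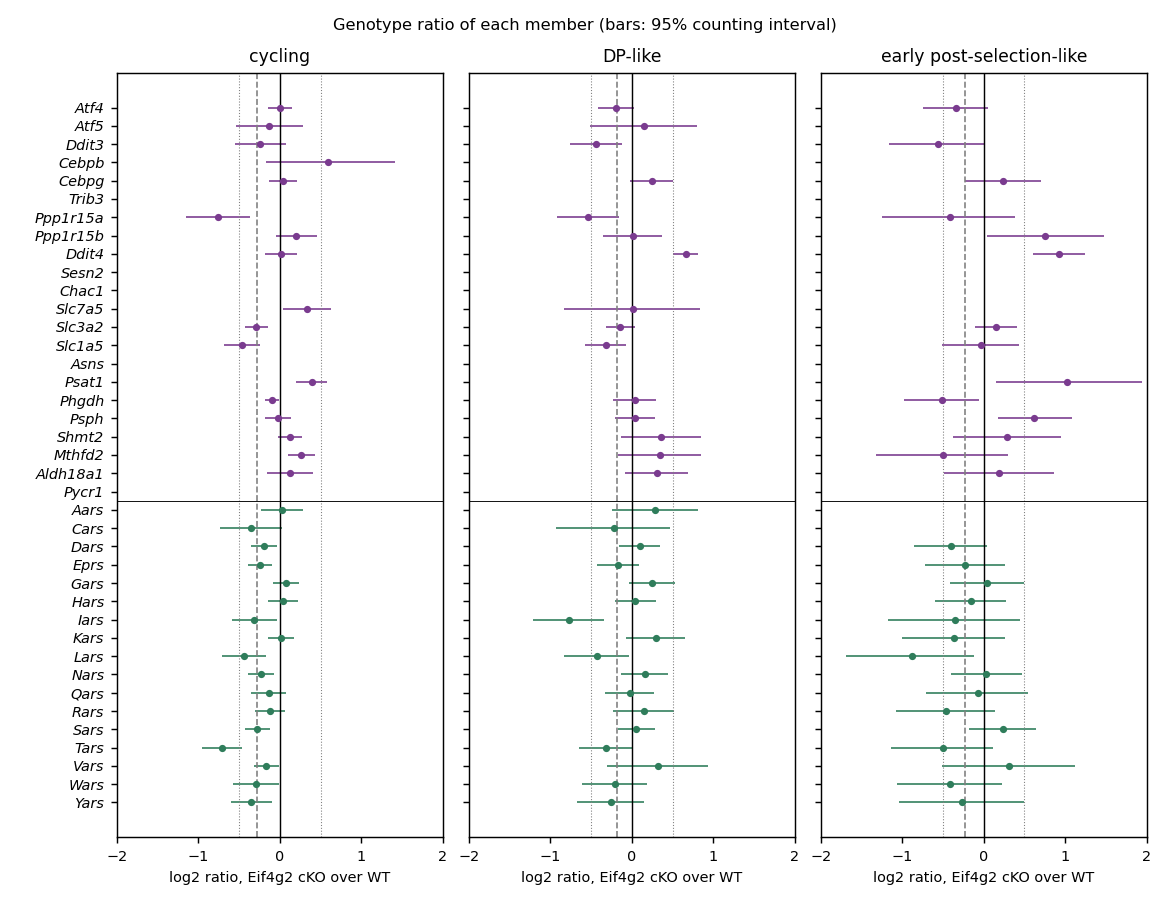
Log2 ratio of CPM, Eif4g2 cKO over WT (x axis), of each gene that reached 50 UMIs in WT and cKO together in cycling, DP-like and early post-selection-like cells, with integrated stress response genes in purple above the line and tRNA synthetases in green below it. Bars are 95% counting intervals, the dashed line is the median of all genes (−0.28, −0.18 and −0.23) and dotted lines stand at 0.5 on either side; most points lie within the dotted lines.

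Of the transcription factors, Atf4 stayed within 0.5 of WT at all 5 stages, Cebpg passed it in DN-like cells and Ddit3 passed it at 3 stages. Atf4, the factor at the head of the target list, was at 88.6 and 77.3 CPM in DP-like cells of the WT and the cKO (log2 ratio −0.20, −0.42 to 0.02). In cycling cells it was at 88.2 CPM in both libraries (0.00, −0.14 to 0.14), and elsewhere its ratio lay between −0.34 and 0.20. Atf4 mRNA does not report translation of the mRNA, which is the step eIF2 phosphorylation acts on. Cebpg, a C/EBP partner of Atf4, was at 52.6 and 62.3 CPM in DP-like cells (0.25, −0.02 to 0.51) and at 31.6 and 45.6 CPM in DN-like cells (0.53, −0.26 to 1.36, from 21 and 42 UMIs). Its ratio was above 0 at each of the 5 stages, with intervals that include 0 at every stage, and in cycling cluster 7 alone it was −0.10.

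Ddit3, the pro-apoptotic factor CHOP, was lower in the cKO library in all 5 stages: 45.2 and 23.9 CPM in DN-like cells, 20.2 and 17.0 CPM in cycling, 48.4 and 35.8 CPM in DP-like, 50.5 and 34.2 CPM in early and 49.7 and 34.0 CPM in mature SP-like cells. The DP-like ratio was −0.43 (−0.76 to −0.12) and the mature ratio −0.55 (−1.13 to 0.00). Centred on the median of all genes, the DP-like ratio became −0.25 and the cycling one turned to 0.04. Relative to genes of like span they were −0.49 and −0.17. In cycling cluster 7 alone Ddit3 was higher in the cKO cells (0.75). Its 3′ end overlaps Mars on the opposite strand, and whether reads were counted by strand is not given in the sources used here. Atf5, another factor translated under stress, was at 11.5 and 10.5 CPM in cycling cells (−0.13, −0.54 to 0.29). Cebpb and Trib3 were close to the detection limit: Cebpb gave 56 WT and 74 cKO UMIs over the whole libraries and Trib3, a pseudokinase that feeds back on the response, 8 and 7.

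Feedback regulators differed in opposite directions. Ddit4 (chromosome 10, 59949669 to 59951834, minus strand), which restrains mTORC1 and answers to glucocorticoids and low oxygen as well as to Atf4, was at 129.9 CPM in WT DP-like cells and at 205 CPM in those of the cKO (682 and 711 UMIs). The log2 ratio was 0.66 (0.51 to 0.81), or 0.46 relative to genes of like genomic span and 0.84 relative to the median of all genes. In early post-selection-like cells it was at 102 and 193 CPM (0.92, 0.61 to 1.24), and in mature SP-like cells at 129.8 and 164 CPM (0.34, 0.06 to 0.61). In cycling cells as a whole it was at 47.9 and 48.3 CPM (0.01, −0.18 to 0.21). In DN-like cells, where the Cre is not expected to act, it was at 37.7 and 55.4 CPM (25 and 51 UMIs; 0.56, −0.16 to 1.31), past the threshold with an interval that includes 0.

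Within clusters the picture for Ddit4 was less even. The cluster that held most cKO DP-like cells had 229 CPM in its WT cells (177 to 291) and 211 CPM in its cKO cells (195 to 228), while the cluster with most WT cells had 124 CPM (112 to 137) in WT and 183 CPM (129 to 253) in cKO cells. Cluster 5 had 125 and 139.7 CPM, with overlapping intervals. Ddit4 was thus higher in cKO cells of the cluster with most WT cells and of cluster 5, and lower in those of the cluster with most cKO cells. The intervals of both libraries overlap in each. These clusters split largely by library, so that their makeup cannot be told apart from genotype or animal here. The early post-selection-like cluster 4 had 98.7 CPM (80.2 to 120.3) in WT and 223 CPM (191 to 258) in cKO cells, which do not overlap, and the smaller cluster 9 had 110.4 and 132 CPM, which do. In cycling cluster 7, the 1 cycling cluster with over 100 cells of each library, Ddit4 was at 62.8 and 117 CPM (0.89, 0.54 to 1.24), unlike cycling cells as a whole. Whether the makeup of clusters, cell-cycle phase within them, the animals' sex or genotype set these levels was not tested.

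Ppp1r15a, the stress-induced subunit that brings phosphatase to eIF2, was lower in the cKO library. It was at 36.8 and 25.4 CPM in DP-like cells (−0.53, −0.91 to −0.16), at 15.8 and 9.27 CPM in cycling cells (−0.76, −1.16 to −0.37) and at 32.7 and 14.0 CPM in mature SP-like cells (−1.22, −2.15 to −0.41). In DN-like cells it gave 10 and 16 UMIs, too few for a ratio. Within cycling cluster 7 alone the direction turned, with 14.1 and 18.5 CPM, and clusters 6 and 2 had 18.3 and 19.2 CPM and 5.79 and 8.12 CPM. The gene also overlaps Tulp2 on the opposite strand. None of the 3 cycling clusters thus had a lower point value in the cKO library. Cluster 2 held 56 WT cells and cluster 6 held 52 cKO cells, so that the levels of those cells rest on few UMIs. These clusters split largely by library, and their makeup cannot be told apart from genotype or animal here. In DP-like clusters 0, 1 and 5 Ppp1r15a was at 40.1 and 14.9, 31.2 and 26.0, and 31.8 and 27.0 CPM, with intervals that overlap in each. Ppp1r15b, the constitutive subunit, was at 31.2 and 31.5 CPM in DP-like cells (0.01, −0.35 to 0.37) and at 21.8 and 36.7 CPM in early cells (0.75, 0.04 to 1.48). Sesn2, a leucine sensor, gave 65 and 37 UMIs in all. Chac1, a glutathione-degrading enzyme that Atf4 induces strongly, gave 1 UMI in the WT and 0 in the cKO library and none in any of the 5 stages; 0 of the 3465137 UMIs of cKO DP-like cells allows up to 0.866 CPM by the limit of 3 UMIs, and up to 1.06 CPM by the interval used for the other levels.

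**Figure D2:**
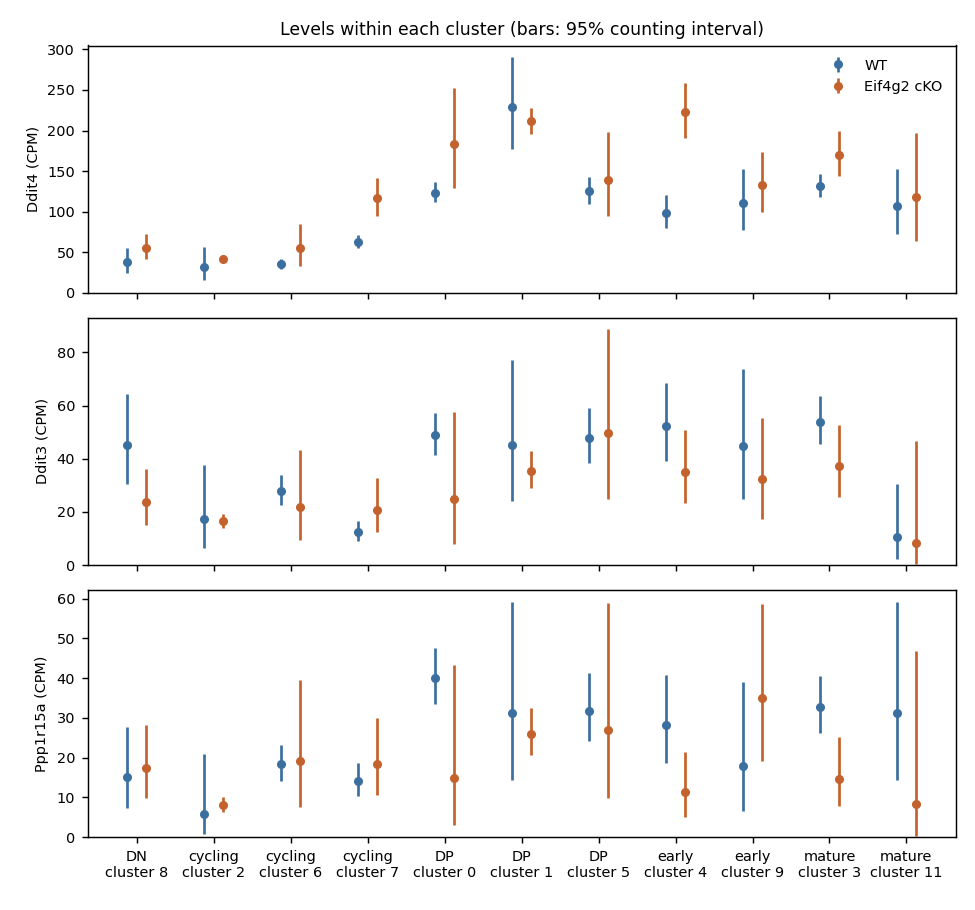
Levels in CPM (y axis, from 0) of Ddit4, Ddit3 and Ppp1r15a in each T lineage cluster (x axis, labelled with its stage), WT in blue and Eif4g2 cKO in orange, with 95% counting intervals. Ddit4 is higher in the cKO library in early cluster 4 (98.7 and 223 CPM) while both libraries overlap in DP cluster 1 (229 and 211 CPM). The point value of Ppp1r15a is not lower in the cKO library in any of the cycling clusters, of which cluster 2 has few WT cells and cluster 6 few cKO cells.

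The 3 amino acid transporters were lower in DN-like cells of the cKO library and differed in direction at other stages. In DN-like cells, where the Cre is not expected to act, they summed to 202 and 129 CPM (−0.64, −1.01 to −0.28). There Slc7a5 was at 51.2 and 31.5 CPM (−0.70, −1.47 to 0.06), Slc3a2 at 108 and 72.7 CPM (−0.58, −1.08 to −0.08) and Slc1a5 at 42.2 and 25.0 CPM (−0.76, −1.62 to 0.09). With stages from marker scores, Slc7a5 in DN-like cells turned to 0.41. Slc3a2, the heavy chain shared by several amino acid exchangers, was at 95.7 and 78.3 CPM in cycling cells (−0.29, −0.43 to −0.15, or −0.01 relative to the median of all genes) and at 189 and 209 CPM in early cells (0.15, −0.11 to 0.41, or 0.38 relative to that median). Relative to genes of like span these ratios were −0.22 and 0.15. Slc1a5, a neutral amino acid transporter that carries glutamine, was at 69.9 and 56.0 CPM in DP-like cells (−0.32, −0.58 to −0.07) and at 39.5 and 22.0 CPM in mature SP-like cells (−0.85, −1.57 to −0.18). It was below 0 at all 5 stages, between −0.04 and −0.85, but the early ratio turned to 0.20 relative to the median of all genes and was −0.04 relative to genes of like span. Slc7a5, the light chain that exchanges leucine with Slc3a2, was at 6.29 and 6.35 CPM in DP-like cells and higher in cycling cells of the cKO library, at 19.6 and 24.6 CPM (0.33, 0.03 to 0.63, or 0.61 relative to the median of all genes). In cycling cluster 7 alone it was at 24.7 and 21.9 CPM (−0.17), with intervals that overlap. Over its whole span of 26.5 kb, Slc7a5 overlaps Gm20388 on the opposite strand.

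Enzymes of serine synthesis and the mitochondrial folate pathway differed in direction between genes, stages and clusters. Psat1, the aminotransferase of serine synthesis, was at 47.0 and 61.5 CPM in cycling cells (0.39, 0.20 to 0.58) and at 13.6 and 27.5 CPM in early cells (1.02, 0.15 to 1.94), the latter from 18 and 33 UMIs. In cycling cluster 7 its ratio was 0.04. Mthfd2, a folate enzyme of mitochondria, was at 65.9 and 79.2 CPM in cycling cells (0.26, 0.10 to 0.43), at 27.1 and 19.2 CPM in early cells (−0.50, −1.32 to 0.30) and at 37.5 and 31.0 CPM in mature SP-like cells (−0.27, −0.90 to 0.31). Shmt2, the mitochondrial serine hydroxymethyltransferase, was at 82.1 and 89.2 CPM in cycling cells (0.12, −0.03 to 0.27) and at 45.0 and 33.0 CPM in mature SP-like cells (−0.45, −1.04 to 0.11). Phgdh, which makes the first step of serine synthesis, was at 242 and 226 CPM in cycling cells (−0.10, −0.19 to −0.01, or 0.18 relative to the median of all genes), at 277 and 378 CPM in DN-like cells (0.45, 0.19 to 0.71) and at 79.8 and 55.9 CPM in early cells (−0.51, −0.98 to −0.06). Psph, the last enzyme of the pathway, was at 65.9 and 67.5 CPM in DP-like cells (0.04, −0.21 to 0.28) and at 54.2 and 83.4 CPM in early cells (0.62, 0.17 to 1.08). The gene overlaps Cct6a on the opposite strand.

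Taken by itself, cycling cluster 7 gave lower levels of 3 of these enzymes in the cKO library. Mthfd2 was there at 66.9 CPM (58.5 to 76.0) in WT and 27.7 CPM (17.8 to 41.2) in cKO cells (−1.27), Shmt2 at 105 CPM (94.8 to 117) and 48.5 CPM (35.0 to 65.6) (−1.12), and Phgdh at 265 CPM (248 to 282) and 162 CPM (136 to 191) (−0.71). The intervals of the libraries do not overlap for any of the 3, and the ratios of Mthfd2 and Shmt2 thus turned against those of cycling cells as a whole. In cycling cluster 2, with 56 WT cells, Mthfd2 was at 69.4 and 83.6 CPM with intervals that overlap. Phgdh was lower in the cKO library there too, at 359 CPM (298 to 428) and 234 CPM (225 to 244), with intervals that do not overlap. In cluster 6, with 52 cKO cells, Mthfd2 was at 64.8 and 79.4 CPM, with intervals that overlap.

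Several targets that respond most to Atf4 were barely present. Asns, the asparagine synthetase, gave 5 WT and 6 cKO UMIs in all, of which none were in DP-like cells of either library. Pycr1, an enzyme of proline synthesis, gave 11 and 17 UMIs. Asns, Chac1 and Pycr1 were also the 3 listed stress response genes whose promoter window held the Atf4 element printed above. The synthetases with a printed element were detected: Aars, Gars, Iars, Tars and Yars were at 13.7, 45.9, 30.5, 44.4 and 27.2 CPM in WT DP-like cells. Shallow counts limit Asns, Chac1 and Pycr1: at the depth of the DP-like cKO cells, 3 UMIs correspond to 0.866 CPM. Aldh18a1, another proline enzyme, was above this range, at 24.0 and 29.7 CPM in DP-like cells (0.31, −0.08 to 0.70).

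The tRNA synthetases differed little as a group. In DP-like cells 16 of 17 were within 0.5 of WT on the log2 scale. The exception was Iars, which charges isoleucine tRNA, at 30.5 and 17.9 CPM (160 and 62 UMIs; −0.77, −1.22 to −0.34). Relative to genes of like genomic span (Iars spans 52.2 kb) the ratio was −0.27, and relative to the median of all genes it was −0.58. Tars, for threonine, had a ratio below 0 at each of the 5 stages. It was at 39.0 and 23.8 CPM in cycling cells (−0.71, −0.96 to −0.47) and at 44.4 and 35.5 CPM in DP-like cells (−0.32, −0.65 to 0.00), and in mature cells it was at 24.5 and 24.0 CPM (−0.03, −0.76 to 0.65). Under both centrings its ratio stayed below 0 at the stages other than the mature one. Tars was also lower in DN-like cells, at 51.2 and 19.5 CPM (−1.39, −2.30 to −0.53).

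Synthetases of the structural class I had a lower median ratio than those of class II in DP-like cells, −0.21 (8 genes, −0.64 to 0.23) against 0.13 (8 genes, −0.17 to 0.40) with bounds that overlap. Eprs, which carries 2 catalytic activities, was counted in neither class. In cycling cells the class medians were −0.30 and −0.09. Summed, the class I genes were at 209 CPM (197 to 222) in WT and 183 CPM (169 to 198) in cKO DP-like cells, and at 306 CPM (294 to 319) and 261 CPM (252 to 271) in cycling cells. The class II genes were at 376 CPM (359 to 393) and 399 CPM (378 to 420) in DP-like cells and at 496 CPM (480 to 512) and 451 CPM (439 to 464) in cycling cells. The 7 listed members of the multi-synthetase complex, a particle that several synthetases form in the cytosol, had a median of −0.02 in DP-like cells and the 10 others 0.05. The bounds of both sets overlap (−0.33 to 0.28 and −0.27 to 0.37).

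Among single synthetases the lowest ratio in any stage was that of Yars, for tyrosine, in mature SP-like cells: 71 WT UMIs against 2 cKO UMIs, or 24.2 and 2.0 CPM (−3.60, −6.67 to −1.69). This rested on the choice of cells. It was −1.30 with each library clustered alone, −1.38 with cells of 1000 to 10000 UMIs, and −0.45 with stages from marker scores (−1.34 to 0.36). Yars overlaps C77080 on the opposite strand. In DP-like cells it was at 27.2 and 22.8 CPM (−0.26, −0.67 to 0.15). Gars, for glycine, was at 51.8 and 29.0 CPM in mature SP-like cells (−0.84, −1.46 to −0.26), and at 45.9 and 54.5 CPM in DP-like cells (0.25, −0.03 to 0.53). Lars, for leucine, was at 33.9 and 18.3 CPM in early cells (−0.89, −1.69 to −0.12, or −0.31 relative to genes of like span and −0.65 relative to the median of all genes). Sars, for serine, was within 0.3 of WT in each stage but the DN-like one, where it was at 43.7 and 80.3 CPM (0.88, 0.24 to 1.55). Mars, left out of the counts, was at 31.4 and 24.0 CPM in DP-like cells (−0.39, −0.79 to 0.00). In mature SP-like cells it was past the threshold, at 30.3 and 14.0 CPM (−1.12, −2.04 to −0.29). Its ratio was −0.41 in cycling and 0.18 in early cells, and DN-like cells gave too few UMIs.

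**Figure D3:**
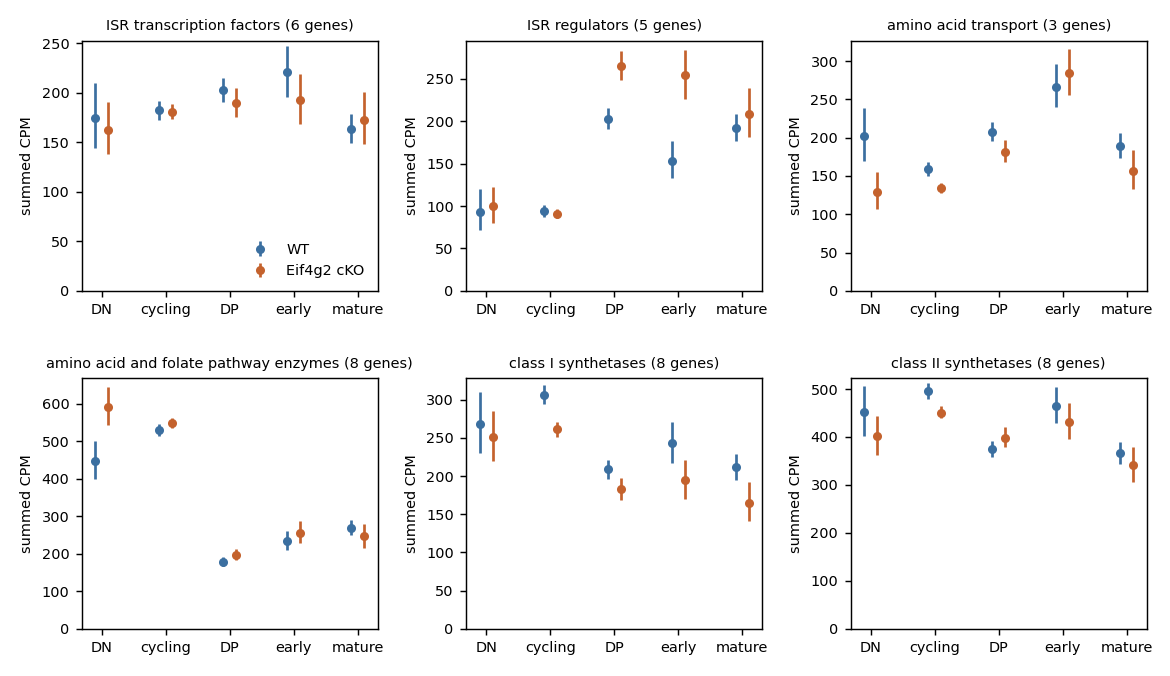
Summed CPM (y axis, from 0) of 6 groups of the listed genes at each stage (x axis), WT in blue and Eif4g2 cKO in orange, with 95% counting intervals. The regulators are at 203 and 265 CPM in DP-like cells, of which Ddit4 gives 129.9 and 205 CPM, and the amino acid and folate enzymes are at 529 and 549 CPM in cycling cells against 178 and 197 CPM in DP-like cells.

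Cycling and DP-like cells differed in these genes in much the same way in each library. The cycling over DP-like ratios of 33 genes in the WT library and in the cKO library had Pearson r = 0.98 and Spearman rho = 0.94. All 8985 genes of that depth had r = 0.95, so the likeness of the libraries was not particular to the members. Each point shares its stage totals with the other points of a library, and no p-value is given. The scale matters here: the median of all genes was −0.58 in the WT and −0.65 in the cKO library.

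Higher in cycling than in DP-like cells by over 0.5 in both libraries were 9 members. Psat1 was at 3.43 CPM in DP-like and 47.0 CPM in cycling WT cells (3.78, 3.10 to 4.55), and its cKO ratio was 3.65 (2.96 to 4.44). Vars, for valine, was at 9.71 and 80.9 CPM in the same WT stages (3.06, 2.64 to 3.5) and had a cKO ratio of 2.57 (2.12 to 3.05). Shmt2 had ratios of 2.47 and 2.23, Mthfd2 of 2.25 and 2.17, and Phgdh of 2.11 and 1.98. Slc7a5 (1.64 and 1.96), Kars for lysine (1.37 and 1.09), Aars for alanine (1.05 and 0.79) and Rars for arginine (1.02 and 0.75) made up the rest. Psph, the last enzyme of serine synthesis, was not among these, at 0.03 and −0.03, nor was the proline enzyme Aldh18a1, at −0.04 and −0.23. Aars shares 1326 bases with Exosc6 on the same strand.

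Lower in cycling cells in both libraries were 4 members. Ddit4 was at 129.9 CPM in DP-like and 47.9 CPM in cycling WT cells (−1.44, −1.63 to −1.25), and its cKO ratio was −2.09 (−2.25 to −1.92). Ddit3 had ratios of −1.26 and −1.07, Ppp1r15a of −1.22 and −1.45, and Slc1a5 of −0.69 and −0.84. Ppp1r15b, the constitutive counterpart of Ppp1r15a, was at −0.16 and 0.03. Relative to the median of all genes, Ddit4, Ddit3 and Ppp1r15a stayed below 0 in both libraries and Slc1a5 lay close to it.

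**Figure D4:**
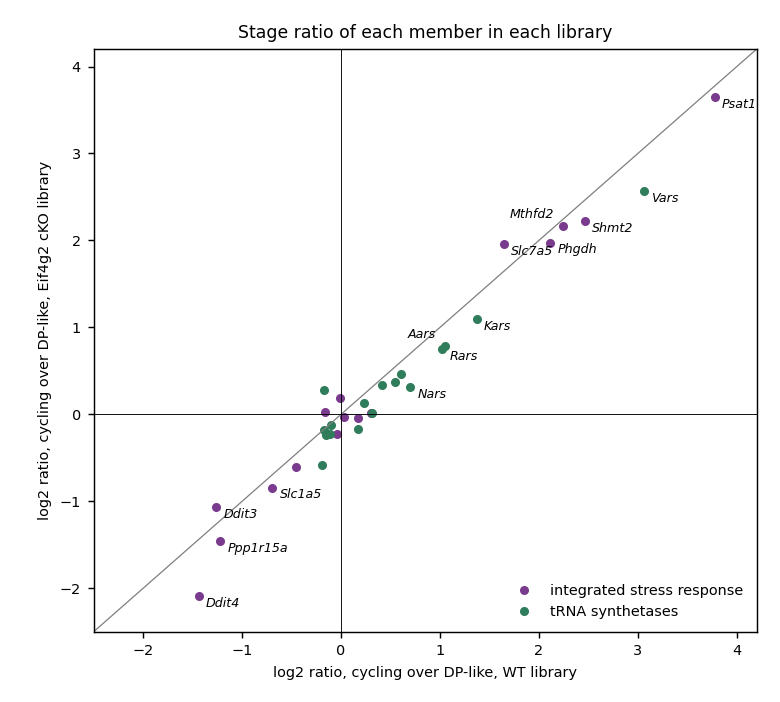
Log2 ratio of CPM, cycling over DP-like cells, in the WT library (x axis) and in the Eif4g2 cKO library (y axis) for 33 genes with at least 50 UMIs in both, integrated stress response genes in purple and tRNA synthetases in green. The grey line marks equal ratios; Psat1, Vars, Shmt2, Mthfd2, Phgdh and Slc7a5 stand far above 0 and Ddit4, Ddit3 and Ppp1r15a far below it in both libraries.

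In the WT library 5 of 16 stress response genes were higher and 4 lower, and 7 of 17 synthetases were higher and 0 lower, while 17.3% of all genes were higher and 53.4% lower in cycling than in DP-like cells. In the cKO library 5 of 17 were higher and 5 lower, and 4 of 17 synthetases were higher and 1 lower (Tars), with 14.8% and 56.4% of all genes. The synthetase medians were 0.31 (0.11 to 0.54) in the WT and 0.29 (−0.12 to 0.56) in the cKO library. Those of the stress response list were 0.01 and 0.02.

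Depth moved with these levels. In cycling WT cells with over 1000 and up to 3000 UMIs the synthetases summed to 663 CPM (588 to 745), with up to 10000 UMIs to 772 CPM (741 to 803) and above that to 1003 CPM (972 to 1035). In the cKO library the same classes gave 799.8 CPM (685 to 929), 678 CPM (654 to 701) and 863 CPM (839.9 to 886). In the 2 deeper classes the WT sums were therefore above the cKO sums at like depth, and in the shallowest class below them with intervals that overlap. The stress response list summed to 903 and 889 CPM in the middle class and to 1013 and 1005 CPM in the deepest one, with overlapping intervals.

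Over DP-like cells of the same library, DN-like cells also had higher and lower levels of listed genes, some of them other ones than in cycling cells. The ratios of 30 genes in both libraries had r = 0.83 and rho = 0.69, and those of all genes r = 0.83. Slc7a5 was at 51.2 CPM in DN-like and 6.29 CPM in DP-like WT cells (3.03, 2.29 to 3.76), with a cKO ratio of 2.31 (1.46 to 3.18). Phgdh (2.31 and 2.72), Shmt2 (2.12 and 2.11), Mthfd2 (1.19 and 0.93), Vars (2.63 and 2.19), Kars (1.57 and 0.85) and Eprs (0.79 and 0.70) were higher in both libraries. Ddit4 (−1.79 and −1.89), Ppp1r15a (−1.29 and −0.55), Slc1a5 (−0.73 and −1.16) and Psph (−1.13 and −1.57) were lower in both. Of the stress response genes 4 of 15 were higher and 6 lower in the WT and 5 of 15 higher and 6 lower in the cKO library, and of the synthetases 6 of 17 higher and 3 lower, and 5 of 16 higher and 1 lower. Of all genes, 14.7% were higher and 52.2% lower in the WT, and 12.2% higher and 53.9% lower in the cKO library. Iars was called in opposite directions, −1.34 in the WT and 0.96 in the cKO library, the former from 8 UMIs. Ddit3, lower in cycling cells of both libraries, was at −0.10 (−0.70 to 0.45) in DN-like WT and −0.58 (−1.31 to 0.08) in DN-like cKO cells, and Cebpg was at −0.73 and −0.45 here against 0.17 and −0.04 in cycling cells. Cycling markers summed to 2287 and 3039 CPM in DN-like cells, so cell division moved with this comparison and its part was not tested.

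In mature SP-like over DP-like cells the members were closer to 0. Shmt2 (1.6 and 0.79), Mthfd2 (1.43 and 0.82) and Vars (1.77 and 0.72) were higher in both libraries, and Slc1a5 (−0.82 and −1.35) and Tars (−0.86 and −0.57) were lower in both. In the WT library 5 of 16 stress response genes were higher and 2 lower, and 2 of 17 synthetases higher and 3 lower, against 13.0% and 46.7% of all genes. In the cKO library the counts were 2 of 13 and 3, and 1 of 16 and 4, against 7.77% and 50.9%. Over 29 genes the libraries had r = 0.49 and rho = 0.60, the r falling short of the 0.86 of all genes. The genes compared include Yars, which rested on 2 UMIs in mature cKO cells. Its part in r was not tested, and no rho of all genes is given. Without the small cluster of 36 WT and 13 cKO cells that also carries cycling transcripts, the genotype medians of mature cells were −0.11 and −0.18. In early post-selection-like cells Slc3a2 was at 189 CPM against 132 CPM in DP-like WT cells (0.52, 0.31 to 0.73), with a cKO ratio of 0.81 (0.58 to 1.04), and Shmt2 (0.98 and 0.91) and Vars (1.01 and 1.00) were again above 0. Early over DP-like ratios of 29 genes in both libraries had r = 0.58 and rho = 0.42, against r = 0.79 of all genes.

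**Figure D5:**
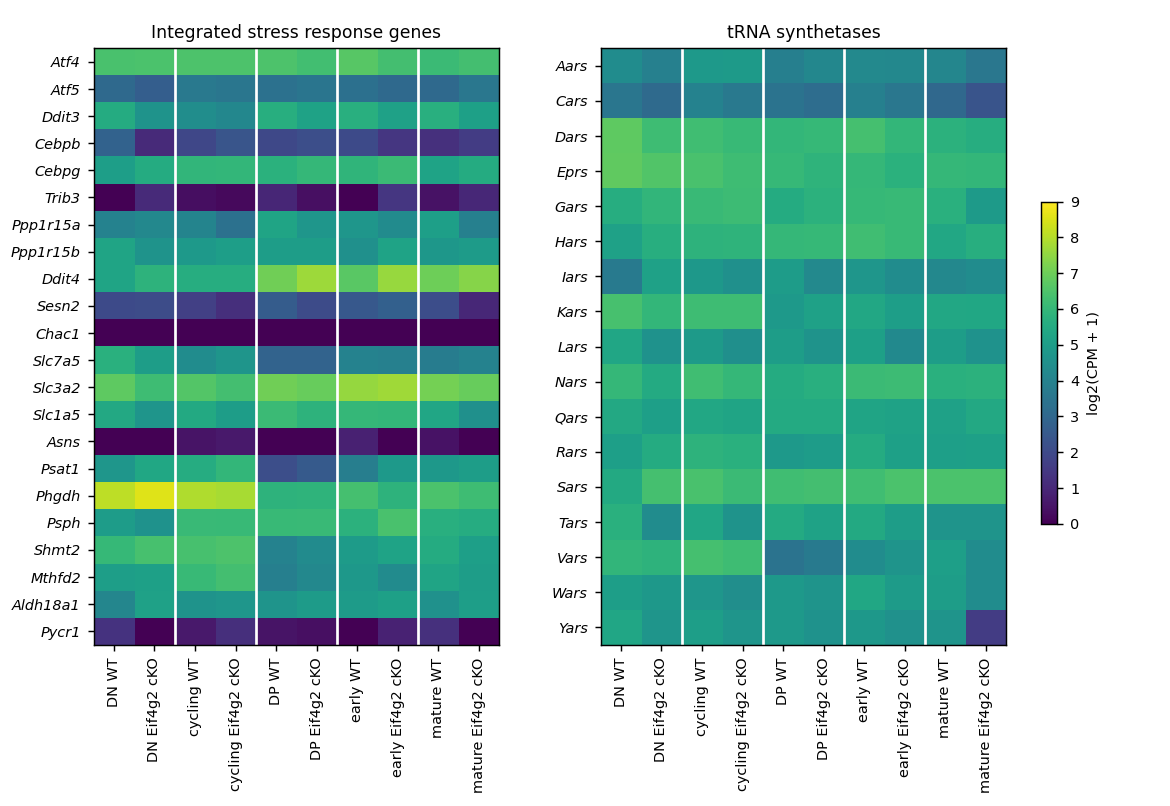
Level of each listed gene as log2(CPM + 1) (colour) in the 5 stages of the WT and Eif4g2 cKO libraries (columns, in pairs), integrated stress response genes on the left and tRNA synthetases on the right. Phgdh, Shmt2, Mthfd2, Psat1, Slc7a5 and Vars are brighter in the DN and cycling columns than in the DP columns of both libraries, and Trib3, Chac1, Asns and Pycr1 are dark throughout.

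Genes upstream of and beside the lists were compared in DP-like cells in the same way. Of 13 genes for kinases that phosphorylate eIF2, their activator Gcn1, eIF2 subunits and eIF2B subunits, 1 was higher and 5 were lower in the cKO library. Eif2ak3, the kinase PERK that senses stress of the endoplasmic reticulum, was at 361 and 122 CPM (−1.57, −1.72 to −1.42). It was also among the leading genes of DP-like cluster 5 (830 WT and 83 cKO cells), and the part of cluster makeup in its ratio was not tested. Eif2ak2 (−0.67, −1.22 to −0.15) and Eif2ak4 (−0.59, −1.29 to 0.07) were lower too, as were Eif2b3 (−0.55, −1.08 to −0.04) and Gcn1 (−0.50, −0.84 to −0.17), and Eif2s3x, the X-linked gamma subunit of eIF2, was at 25.3 and 50.8 CPM (1.00, 0.67 to 1.34). The Y-linked copy of this subunit is 1 of the Y-linked genes that differed between the libraries, and reads shared by near-identical copies are uncertain. Eif2b1 (0.31) and Eif2s2 (0.36, 0.26 to 0.46) completed the highest values.

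Of 6 tested other targets of Atf4, 1 was higher and 2 were lower: Eif4ebp1, which restrains cap-dependent translation, was at 13.3 and 20.8 CPM (0.64, 0.15 to 1.14), and Slc7a11, the cystine transporter, was at 265 and 158 CPM (−0.75, −0.89 to −0.60). Slc38a1 was also lower (−0.69, −0.87 to −0.51), and Slc38a2, Got1 and Slc7a1 lay between −0.23 and −0.13. Of 20 genes of the Atf6 and Xbp1 branches of the unfolded protein response, 6 were higher and 2 lower. Hyou1, a chaperone of the endoplasmic reticulum, was at 14.3 and 46.2 CPM (1.69, 1.29 to 2.11), and Sdf2l1 (0.84) and Creld2 (0.65) were higher as well. Dnajb9 (−0.75, −1.13 to −0.38) and the sensor Atf6 (−1.15, −1.91 to −0.45) were lower, and Dnajc3 was at −0.46.

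Of 14 mitochondrial synthetases 0 were higher and 4 lower, with Fars2 (−1.06, −1.28 to −0.85), Nars2 (−1.03) and Wars2 (−0.94) lowest and Mars2 (0.40), Yars2 (0.36) and Hars2 (−0.02) highest. Of 6 further cytosolic synthetase and complex genes 3 were higher and 0 lower: Eef1e1 (0.84, 0.53 to 1.14) and Aimp2 (0.78, 0.31 to 1.26), which are scaffold proteins of the complex, and Xpot (0.51, −0.10 to 1.11), the tRNA exporter. Aimp1 (0.22), Farsb (0.12) and Farsa (−0.13) were within 0.5. Of 8 tested growth genes (Myc, nucleolar genes and proliferation markers) 4 were higher and 0 lower, with a median of 0.47 (0.25 to 0.70). These counts stand beside the 8.42% higher and 29.7% lower of all genes in DP-like cells.

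Genomic span moved with the genotype ratio over the whole table. In DP-like cells the median ratio of all genes was 0.20 for spans up to 5 kb, 0.05 for 5 to 20 kb, −0.23 for 20 to 50 kb, −0.50 for 50 to 100 kb and −0.76 above 100 kb. No listed gene spans more than 100 kb, and Eprs at 65.3 kb is the longest. The listed genes of those classes had medians of −0.02 (4 genes), 0.03 (12), 0.05 (12) and −0.30 (4). Fars2 spans 609 kb, Slc7a11 551 kb and Eif2ak3 60.7 kb, against 2.17 kb for Ddit4 and 12.9 kb for Hyou1. The part of span in any of these values was not tested.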

How the data were processed

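Thymus cells of 1 WT and 1 Eif4g2 cKO mouse were sequenced on the DNBelab C4 system. The authors ran dnbc4tools (version 2.1.3 in the series' design text and 3.0 in the file header) and deposited UMI counts per gene and barcode with no normalization, and the submitters' processing notes name the build mm10. Both tables were read as the cDNA libraries of these mice, and the oligo libraries were not analysed here. Of the gene identifiers, 97.5% occur with their version in GENCODE M21 (release 21, GRCm38), from which positions were taken.

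The members and lists were chosen with earlier results of these data known. Cells had at least 50 genes and at most 10% mitochondrial UMIs, which removed 2 WT cells and left 6012 WT and 4335 cKO cells, more than the study states for each library after its own quality control. Clustering used genes seen in 3 or more cells. After scaling each cell to 10000 UMIs and taking logs, 2000 variable genes without the listed genes gave 30 principal components, 20 neighbours and Leiden clusters at resolution 1 (scanpy 1.11.5, leidenalg 0.10.2, seed 1), first on all cells and again on T lineage cells. A cluster was named where at least 3 fixed markers were raised by 0.5 on the log2 scale. Stage names were rebuilt here and may differ from the study's. Cell names are indices, of which 1055 occur in both libraries, so shared barcodes could not be counted. Doublets were not removed.

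UMIs were summed per stage and library, expressed as CPM and given exact Poisson intervals. Log2 ratios carry exact conditional binomial (Clopper-Pearson) intervals at 95%, and genes with at least 50 UMIs over both groups were compared. With 1 library per genotype no test or p-value is given. Median bounds are the medians of the members' lower and upper bounds. The highest level that a count of 0 allows is 3 UMIs of the total. The ratios and intervals were tested on simulated data. All listed genes were named, and from each other list the 3 highest and 3 lowest in DP-like cells. Ddit3 has a second row with 0 UMIs, which was not used. Alternatives were other cell filters, resolutions 0.6 and 1.6, each library clustered alone, stages from marker scores, centring on all genes or on genes of like span, equal weight per cell, and minima of 1, 20 and 200 UMIs. The sequence of 1 promoter match is not reported here.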

Additional observations from a re-analysis of the deposited data

How the results depend on the processing

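The list medians of the genotype comparison and of the stage comparisons stayed within counting error of the value reported in 296 recomputations and moved further in 19. With centring on the median of all genes, the cycling genotype medians became 0.29 for the integrated stress response list and 0.048 for the synthetases. The medians over DP-like cells became 0.71 for synthetases in DN-like cKO cells, 0.59 (WT) and 0.66 (cKO) for the stress response list and 0.89 and 0.93 for synthetases in cycling cells, and 0.39 and 0.45, and 0.42 and 0.47, in mature SP-like cells. With centring on genes of like span, the cycling genotype median of synthetases became 0.084, and over DP-like cells that of synthetases became 0.76 in DN-like cKO cells, 1.05 (WT) and 0.95 (cKO) in cycling cells and 0.56 in mature WT cells, and that of the stress response list 0.41 (WT) and 0.39 (cKO) in cycling cells. These shifts follow from the medians subtracted. At a minimum of 200 UMIs the DN-like over DP-like median of the stress response list in WT was −0.73, from fewer genes. The single genes named next as turning direction were all past 0.5 as reported. Genes within 0.5 turned as well, such as the genotype ratios of Eprs (0.034), Dars (0.077) and Phgdh (0.18) in cycling cells, centred on all genes. Of the genes past 0.5, those that turned were Aars in mature cells (0.12) and Vars early over DP-like in the cKO (−0.22) with each library clustered alone, and Tars mature over DP-like in the cKO at resolution 1.6 (0.073). With stages from marker scores these were Ddit3 (0.029), Slc7a5 (0.41) and Dars (0.00046) in DN-like cells, Aldh18a1 (0.15) and Hars (0.22) DN-like over DP-like and Cars early over DP-like (−0.33) in WT. With centring on all genes they were Aldh18a1 DN-like over DP-like in WT (0.0084), Ppp1r15a DN-like over DP-like (0.032) and Slc3a2 (0.039) and Tars (0.065) cycling over DP-like in the cKO, and with centring on span Aldh18a1 (0.073) and Psph mature over DP-like in the cKO (0.031). In the 1 cycling cluster with over 100 cells of each library, chosen after seeing the data, Ppp1r15a was at 0.39, and of the genes within 0.5 Mthfd2 went from 0.26 to −1.27, Shmt2 from 0.12 to −1.12, Phgdh from −0.10 to −0.71, Slc7a5 from 0.33 to −0.17 and Ddit3 from −0.24 to 0.75. Synthetases that moved there include Kars, from 0.02 to −0.56, and Aars, from 0.03 to −0.50. Counts of genes past 0.5 in the genotype comparison were small and moved by over 1.5 times under at least 1 alternative at every stage. Lower stress response genes ran from 0 to 6 in DN-like (4 as reported), 0 to 3 in cycling (1) and DP-like (1) and 0 to 4 in early (2) and mature SP-like cells (3), and higher ones from 0 to 4 (3), 0 to 4 (1), 1 to 3 (1), 1 to 5 (4) and 0 to 4 (1). Lower synthetases ran from 1 to 5 (3), 0 to 4 (1), 0 to 2 (1), 0 to 4 (2) and 0 to 6 (5), and higher ones from 1 to 3 in DN-like (1), 0 to 2 in DP-like (0) and mature (0), 0 to 1 in early (0) and 0 in cycling cells. Beyond the shifts named as following from a subtraction, the cause was not tested. No paired analysis was possible because each genotype has 1 library, and no replicate could be left out. Genes under 50 UMIs, such as Asns and Chac1, cannot be compared at this depth.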

Other observations

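Cells outside the 5 stages carried the listed genes at other levels. In 44 WT erythroid-like cells, led by globin genes, the 22 stress response genes summed to 73.7 CPM (45.0 to 114) and the 17 synthetases to 59.0 CPM (33.7 to 95.8), and the 4 cKO cells of that kind gave 2 and 0 UMIs. In 55 WT and 14 cKO cells that are NKT or gamma delta-like, the stress response genes summed to 851 CPM (729.6 to 988) and 615 CPM (445 to 829), and the synthetases to 631 CPM (527 to 750.0) and 558 CPM (397 to 763). In a cluster led by Cd74 and H2-Aa, with 65 WT and 25 cKO cells, the stress response genes summed to 771 CPM (656 to 900.3) and 925 CPM (695 to 1207), and the synthetases to 636 CPM (532 to 754) and 634 CPM (446 to 874). These groups hold few cells and are given as values.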
